A study of Mus musculus with 16 samples.

Results

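The siBrca1 course is the change between day 3 and day 6 of reprogramming in cells that received siRNA against Brca1. It rests on 4 of the 16 RNA sequencing libraries of the series, 2 from day 3 and 2 from day 6, chosen by their labels and not by any measured value. Primary wild-type BL6 mouse embryonic fibroblasts (MEFs) at passage 2 were infected with lentiviruses carrying the tet-STEMCCA cassette, which encodes Oct4, Sox2, Klf4 and c-Myc (OSKM), and the rtTA transactivator. They were plated at 10000 cells per cm2, transfected with 40 nM of pooled siRNA, and given 2 ug/mL doxycycline to switch the cassette on. All groups, the control included, also had LIF, 50 ug/mL ascorbic acid, 3 uM of the GSK3 inhibitor chiron and 0.25 uM of an Alk5 inhibitor, which blocks a TGF-beta receptor. The comparison courses were the non-targeting siRNA (nt control), siWdr5 and siBard1, each with 2 libraries at day 3 and 2 at day 6. The replicates of a group came from independent experiments on these fibroblasts.

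BRCA1 is an E3 ubiquitin ligase subunit that works as a dimer with BARD1. It resects and repairs broken DNA by homologous recombination and protects stalled replication forks, and its gene is itself transcribed mainly in dividing cells at S and G2. WDR5 is a core subunit of the MLL histone methyltransferases that write H3K4 methylation. When OSKM reprogram a fibroblast, contractile and matrix genes are first turned down, the cells divide faster and take on epithelial junctions and keratins (a mesenchymal-to-epithelial transition), and the endogenous pluripotency network, with Nanog, is switched on later.

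Values are in CPM, the counts scaled to the size of each library, taken as 2 to the power of the deposited log2 CPM. The siBrca1 libraries held 11169738 to 14977162 reads, against 11169738 to 26832534 over all 16, and 3 reads, the floor used here, corresponded to 0.202 to 0.260 CPM in them. Of the 18990 genes listed, 14028 had a mean log2 CPM of at least 0 and were tested. The siBrca1 replicates stood further apart than those of the other groups, with an SD of the replicate differences of 0.415 (log2) at day 3 and 0.439 at day 6, against 0.264 to 0.354. A change is the mean log2 CPM at day 6 minus that at day 3, tested with limma on all 16 libraries. A gene passed the test at a Benjamini-Hochberg adjusted p below 0.05 over all genes tested, and was called if its change was also above 1 in size. In bulk libraries, fewer cells of a type and less RNA per cell cannot be told apart.

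The knockdown reagents are shown first, since the course begins from the transcript that they cut. The siRNA table held 2 siRNAs against Brca1, both of which matched coding sequence of a 6572-base transcript of 23 exons on the minus strand of chromosome 11 (GRCm38, GENCODE). The first siRNA matched exon 4 at chr11:101535553-101535571, bases 299 to 317 of the transcript, and the second exon 5 at chr11:101534000-101534018, bases 352 to 370. The library was described as pools of more siRNAs per gene, so a further siRNA may have been in the pool and was not analysed here. In the antisense strands below, capitals mark the seed, bases 2 to 8. In the target sites, capitals mark the 19 matched bases and lower case the 10 transcript bases on each side.
siRNA 65763, antisense: aAGGACAUugugaaggccctt
Site of 65763: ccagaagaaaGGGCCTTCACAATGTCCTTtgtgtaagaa
siRNA 65855, antisense: aCUAAACCuugugcuuccctg
Site of 65855: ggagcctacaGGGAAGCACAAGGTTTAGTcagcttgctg

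Brca1 did not pass the test within the siBrca1 course, whereas it fell in the nt course. In siBrca1 the 2 libraries of day 3 held 37.5 and 19.4 CPM (28.4 ± 12.8, SD, n = 2) and those of day 6 held 35.9 and 40.1 CPM (38.0 ± 2.96). The nt libraries held 82.4 and 78.0 CPM at day 3 and 33.2 and 42.6 CPM at day 6. All siBrca1 libraries thus lay below both day 3 nt libraries, and within siBrca1 the days overlapped through replicate 1 of day 3. The siBrca1 change was 0.49 (SE 0.215, adjusted p = 0.0691) and the nt change −1.09 (adjusted p = 0.000709). The difference between the courses was 1.58 (SE 0.304, adjusted p = 0.00390). Set against the nt control at each day, Brca1 was 1.57 lower (log2 −1.57, adjusted p = 5.76e-05) at day 3 and differed by 0.01 (adjusted p = 0.989) at day 6. Without replicate 1 of day 3 the siBrca1 change was 0.97 (adjusted p = 0.000253).

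Bard1 and Wdr5, the partners targeted in the other courses, behaved similarly. Bard1 stood at 14.4 and 9.07 CPM in siBrca1 at day 3 and at 10.9 and 15.1 CPM at day 6, while the nt libraries went from 30.5 and 29.1 to 11.3 and 14.01 CPM. Its siBrca1 change of 0.16 did not pass (adjusted p = 0.537), and it differed from the nt change by 1.41 (SE 0.292, adjusted p = 0.00564). Wdr5 stood at 74.3 and 68.9 CPM at day 3 and at 92.8 and 83.5 CPM at day 6, with a change of 0.30 (adjusted p = 0.0524), and its difference from the nt course was 0.77 (adjusted p = 0.00814). The siRNAs against Brca1 were not designed against these genes. Against the nt control at day 3, Bard1 was at −1.38 and Wdr5 at −0.87, both past the test (adjusted p = 0.000106 and 6.59e-05).

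**Figure D1:**
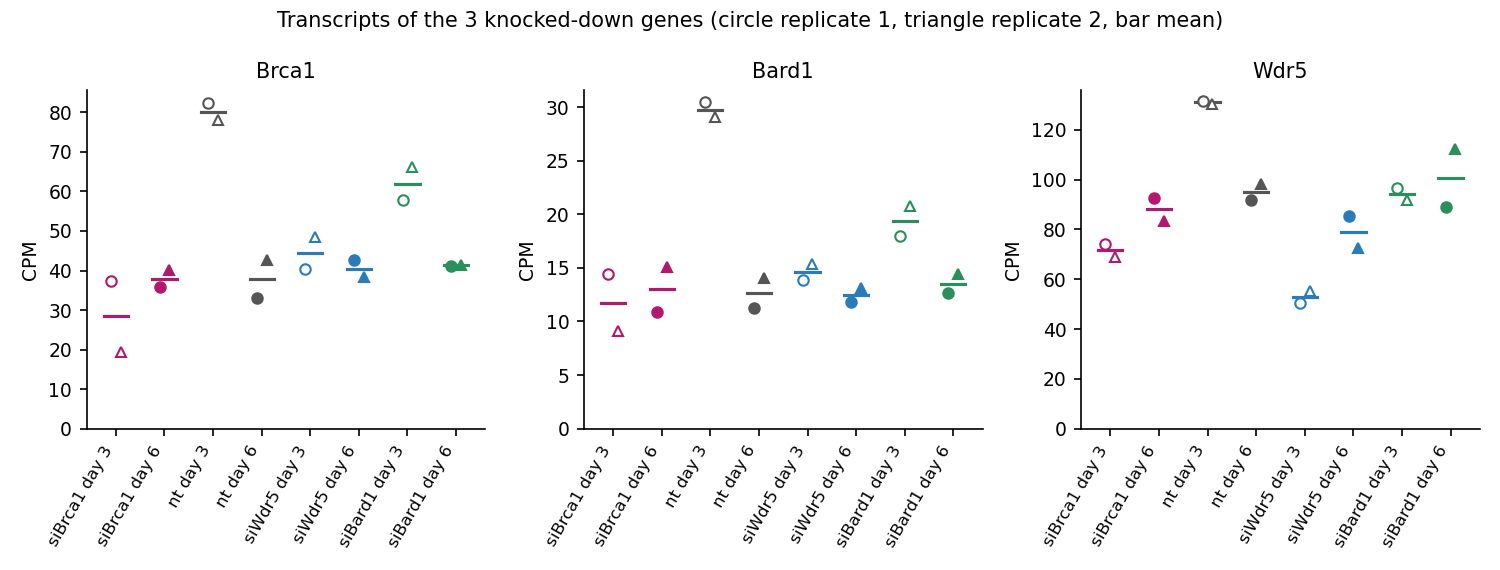
Brca1, Bard1 and Wdr5 transcripts in CPM (axis from 0) in the 16 libraries, by siRNA and day, with open symbols for day 3, filled for day 6, circles for replicate 1, triangles for replicate 2 and bars for the mean of 2. Brca1 spans 19.4 to 40.1 CPM in the siBrca1 libraries and 78.0 to 82.4 CPM in the nt libraries of day 3.

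Over the whole transcriptome, 2874 genes (20.5% of those tested) passed with a rise in the siBrca1 course and 4055 (28.9%) with a fall. With the fold threshold, 1420 were called higher (10.1%) and 822 lower (5.86%). In the nt course, 2667 genes passed with a rise (19%) and 3807 with a fall (27.1%), and 1659 genes were called. The median change over all genes tested was −0.10 in siBrca1 and −0.07 in nt. Across the 14028 genes the changes of the courses, which share no library, correlated with a Pearson r of 0.683, given as a description since genes are not independent replicates. The genes called higher in both courses were 573, which is 40.4% of the siBrca1 and 52.4% of the nt list. Those called lower in both were 224, or 27.3% and 39.6%.

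The courses nevertheless differed past the test at many genes. The spread used in that test is shared by all 8 groups, and the siBrca1 replicates stood furthest apart. It may therefore be too small for siBrca1. In the siBrca1 course 4580 genes passed in a fit of its own 4 libraries, against 6929 with all 16. In the test of the difference (siBrca1 change minus nt change), 1438 genes (10.3%) passed with a positive and 1440 (10.3%) with a negative value. With the fold threshold, 1206 were called, 555 positive (3.96%) and 651 negative (4.64%). Among the differences that passed, whatever their size, 80 belonged to genes that rose in siBrca1 and fell in nt. Another 145 belonged to genes that fell in siBrca1 and rose in nt. Each of these changes also passed in its own course. The number called depended on replicate 2 of siBrca1 day 3: it was 437 without that library, 1956 without replicate 1 of day 3, and 774 without replicate 1 of nt day 3. At day 3, siBrca1 and nt differed by 1864 called genes (3343, or 23.8%, passed higher in siBrca1 and 2932, or 20.9%, lower). At day 6 they differed by 16 called genes (18, or 0.128%, passed higher and 3, or 0.0214%, lower). Leaving out 1 library of the day moved these to between 1013 (without replicate 2 of siBrca1 day 3) and 2556 (without replicate 1) at day 3, and to between 2 (without replicate 2 of siBrca1 day 6) and 80 (without replicate 1) at day 6. Without replicate 1 or 2 of nt day 6, 7 and 3 were called. These day comparisons use the same libraries as the courses, so they restate the course difference by its end points.

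**Figure D2:**
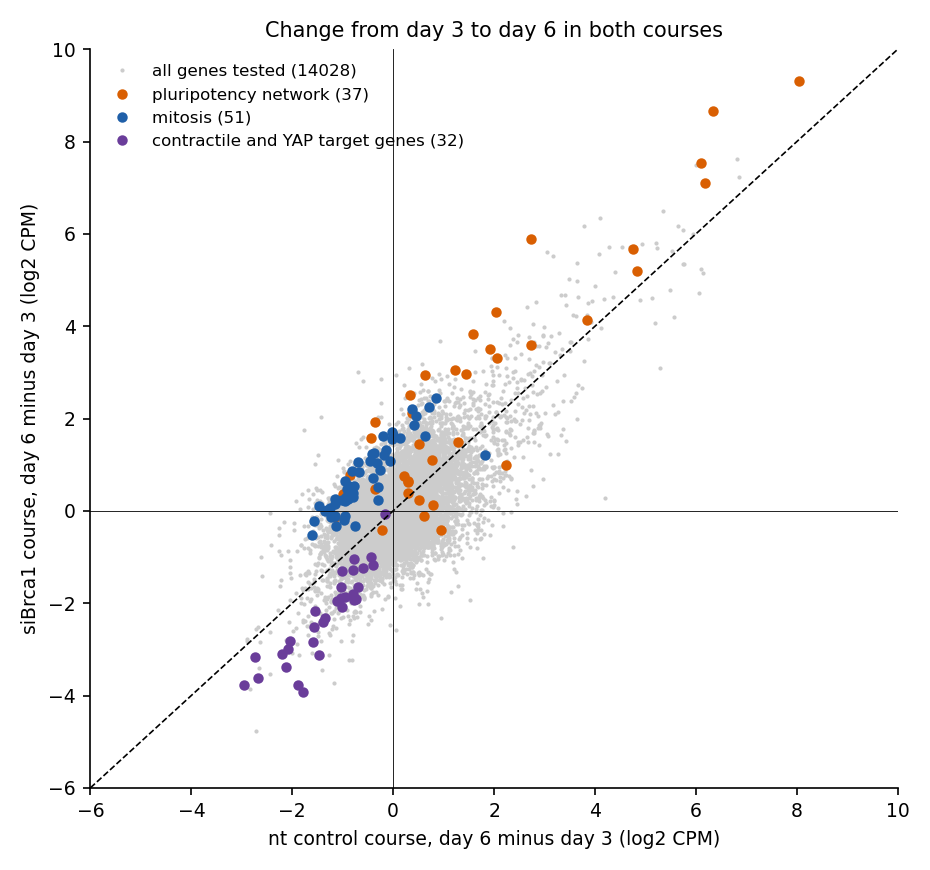
Change from day 3 to day 6 (log2 CPM) in the nt course (x axis) and the siBrca1 course (y axis) for the 14028 genes tested, with the pluripotency, mitosis and contractile lists coloured and the dashed line marking equal change. Mitosis genes lie above the line except Pttg1 (named after its value was seen), with a median of 0.55 in siBrca1 and −0.77 in nt, and contractile genes below it except Nuak2, with medians of −2.02 and −1.08.

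**Figure D3:**
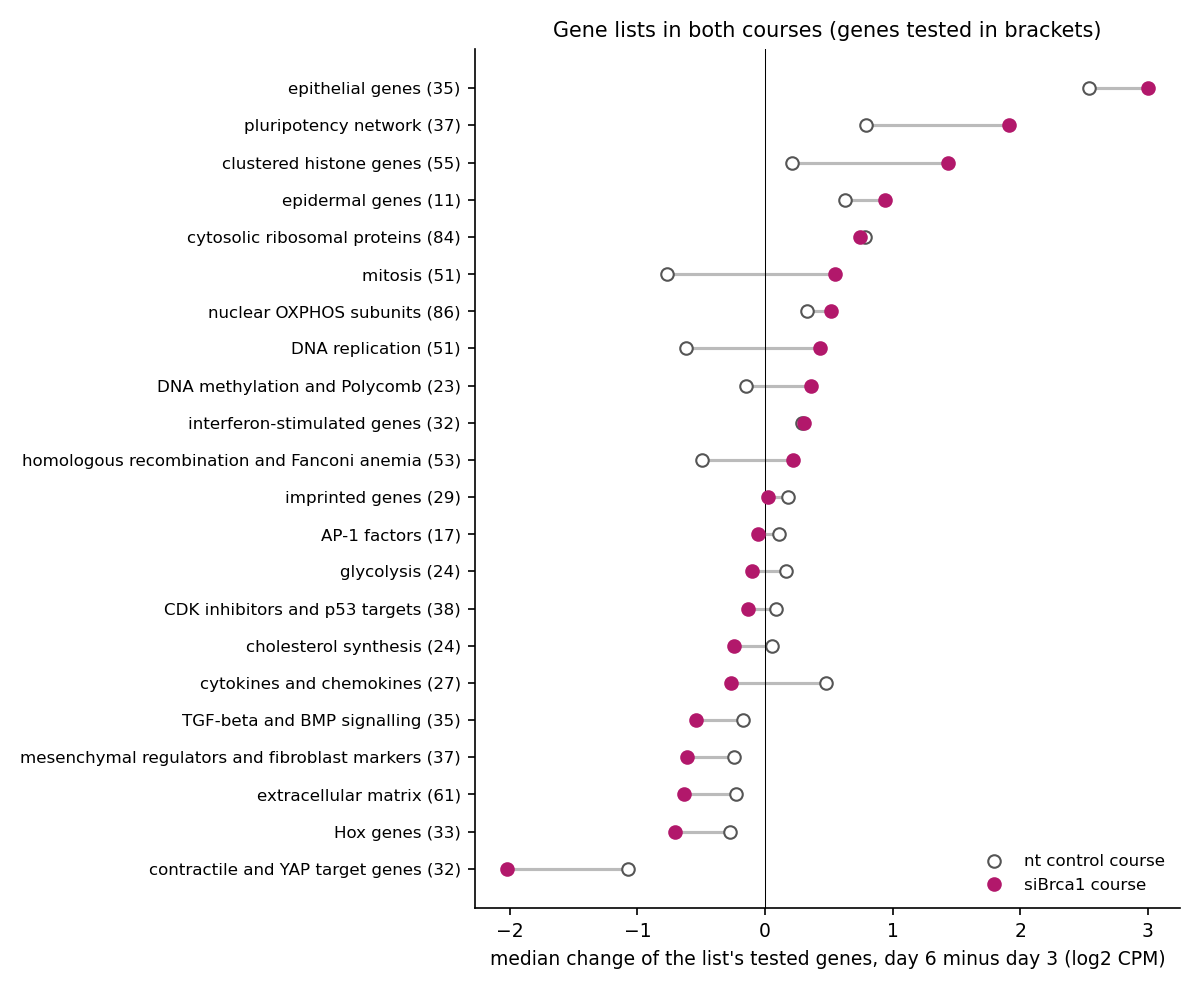
Median change from day 3 to day 6 (log2 CPM) over the tested genes of each list with 10 or more of them, in the siBrca1 course (filled) and the nt course (open), ordered by the siBrca1 median. Medians run from −2.02 for contractile and YAP target genes to 3.00 for epithelial genes in siBrca1, and the mitosis, replication and homologous recombination lists have opposite signs in the courses.

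The cell division genes differed between the courses: in siBrca1 more of them rose than fell from day 3 to day 6, and in nt more fell than rose. Of 51 mitosis genes, 25 rose and 1 fell in siBrca1 (median 0.55, background 20.5% and 28.9%), while 4 rose and 28 fell in nt (median −0.77). The test of the difference was passed by 47, all with a positive value (background 10.3%). Ccnb1, the cyclin that drives entry into mitosis with CDK1, stood at 40.2 and 19.2 CPM at day 3 and at 82.1 and 81.1 CPM at day 6. Both day 6 libraries lay above both day 3 libraries, a rise of 1.55 (SE 0.224, adjusted p = 4.05e-05), and the nt libraries stayed between 73.9 and 76.6 CPM throughout. The Ccnb1 courses differed by 1.58 (adjusted p = 0.00471). Mki67, which encodes the proliferation antigen Ki-67, gave 252 and 133 CPM at day 3 and 126 and 193 CPM at day 6. The Mki67 groups overlapped and the change of −0.23 did not pass (adjusted p = 0.419), but in nt it fell by 1.57 from 425 and 414 CPM to 131 and 152 CPM, and the difference of 1.34 passed (adjusted p = 0.00965).

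Other mitosis genes followed one of these patterns. Top2a, the topoisomerase that untangles replicated chromosomes, held 198 and 107 CPM at day 3 and 175 and 256 CPM at day 6. Its change of 0.55 did not pass (adjusted p = 0.0527), and its difference from nt was 1.33 (adjusted p = 0.00967). Cenpk, a subunit of the inner kinetochore, had the largest rise of the list, from 2.05 and 1.12 CPM to 7.33 and 9.44 CPM (2.46, adjusted p = 3.90e-06). Foxm1, the transcription factor that activates G2/M genes, was the 1 member that fell, from 68.7 and 37.1 CPM to 31.9 and 38.5 CPM (−0.53, adjusted p = 0.0370), with the days overlapping, and without replicate 1 of day 3 its change was −0.08 (adjusted p = 0.678), and −0.39 (adjusted p = 0.197) without replicate 1 of day 6. Aurkb, the kinase of the chromosomal passenger complex, stood at 30.2 and 13.2 CPM and then 19.5 and 20.3 CPM, a change of −0.01 (adjusted p = 0.982) beside a fall of 1.36 in nt.

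DNA replication genes moved alike. Of 51, 22 rose and 1 fell in siBrca1 (median 0.43, background 20.5% and 28.9%), and 4 rose and 27 fell in nt (median −0.62). A positive difference passed for 44 (background 10.3%). Pcna, the sliding clamp of the DNA polymerases, stood at 79.4 and 40.9 CPM at day 3 and at 169 and 169.9 CPM at day 6. The groups did not overlap, and the rise was 1.57 (SE 0.204, adjusted p = 1.57e-05) beside 0.20 (adjusted p = 0.450) in nt. Gmnn, geminin, which keeps origins from firing again, rose most in this list, from 12.7 and 8.08 CPM to 71.0 and 43.9 CPM (2.46, adjusted p = 3.06e-07). Mcm2, a subunit of the replicative helicase, gave 93.9 and 58.9 CPM and then 94.6 and 89.7 CPM (0.31, adjusted p = 0.104), with a difference from nt of 1.03 (adjusted p = 0.00572). Cdc6, which loads that helicase, gave 14.5 and 7.31 CPM and then 11.2 and 15.0 CPM (0.33, adjusted p = 0.248), with a difference of 1.46 (adjusted p = 0.00776). Rrm2, the small subunit of ribonucleotide reductase, fell from 165 and 122 CPM to 88.9 and 108 CPM (−0.53, adjusted p = 0.00389), and by 1.32 in nt. Without replicate 1 of day 3 the Rrm2 change was −0.31 (adjusted p = 0.0700).

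In the homologous recombination and Fanconi anemia list, the pathway in which BRCA1 itself acts, 16 of 53 genes rose and 3 fell in siBrca1 (median 0.22), against 5 and 25 in nt (median −0.49). The difference passed for 29, all positive. Over all genes tested, 20.5% rose and 28.9% fell in siBrca1, and 10.3% had a positive difference from nt that passed. Chek1, the kinase of the replication checkpoint, was at 12.7 and 8.08 CPM at day 3 and at 53.04 and 46.6 CPM at day 6, a rise of 2.30 (SE 0.185, adjusted p = 2.06e-07), and its difference from nt was 1.81 (adjusted p = 0.00207). Rpa3, the smallest subunit of the single-strand binding protein RPA, rose by 2.36 (adjusted p = 5.00e-08) from 8.62 and 7.24 CPM to 46.3 and 35.5 CPM. Brca2 stayed between 12.5 and 16.5 CPM in siBrca1 (−0.27, adjusted p = 0.211), and Fancd2, the target of Fanconi ubiquitination, had a change of 0.29 (adjusted p = 0.294) and a difference from nt of 1.08 (adjusted p = 0.0245). Fancd2 did not pass (adjusted p = 0.0671 to 0.111) without replicate 2 of day 3, replicate 2 of day 6, either nt library of day 3 or replicate 1 of nt day 6. The 3 genes that fell, named after their values were seen except for Nabp2, were Nabp2 (−0.40), Rad50 (−0.38) and the deubiquitinase gene Bap1 (−0.34), and none of them passed without replicate 1 of day 3 (adjusted p = 0.212, 0.114 and 0.0514). Nabp2 and Rad50 did not pass without replicate 1 of day 6 either (adjusted p = 0.0679 and 0.293), nor Nabp2 without replicate 2 of day 6 (adjusted p = 0.0909).

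The size of these counts rested on day 3. Summed over the 51 mitosis genes, the siBrca1 libraries of day 3 held 2402 and 1360 CPM (1359.6) and those of day 6 held 2602 and 3038 CPM, against 4127 CPM in both nt libraries of day 3 and 2532 and 2752 CPM at day 6. Replicate 2 of day 3 was thus the lowest of these 8 libraries, and it was also the one with less Brca1. Without it, 20 mitosis genes rose and 10 fell in siBrca1 (median 0.10), 15 replication genes rose and 5 fell (0.08), and 11 homologous recombination genes rose and 6 fell (0.03). Without replicate 1 of day 3 instead, 42, 39 and 25 rose and none of the 3 lists had a member that fell. The difference from nt remained positive and passed for 34 mitosis, 32 replication and 11 homologous recombination genes without replicate 2. At day 3, 50 of 51 mitosis genes, 50 of 51 replication genes and 43 of 53 homologous recombination genes were lower in siBrca1 than in nt (background 20.9%), and at day 6 none of them passed in either direction.

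**Figure D4:**
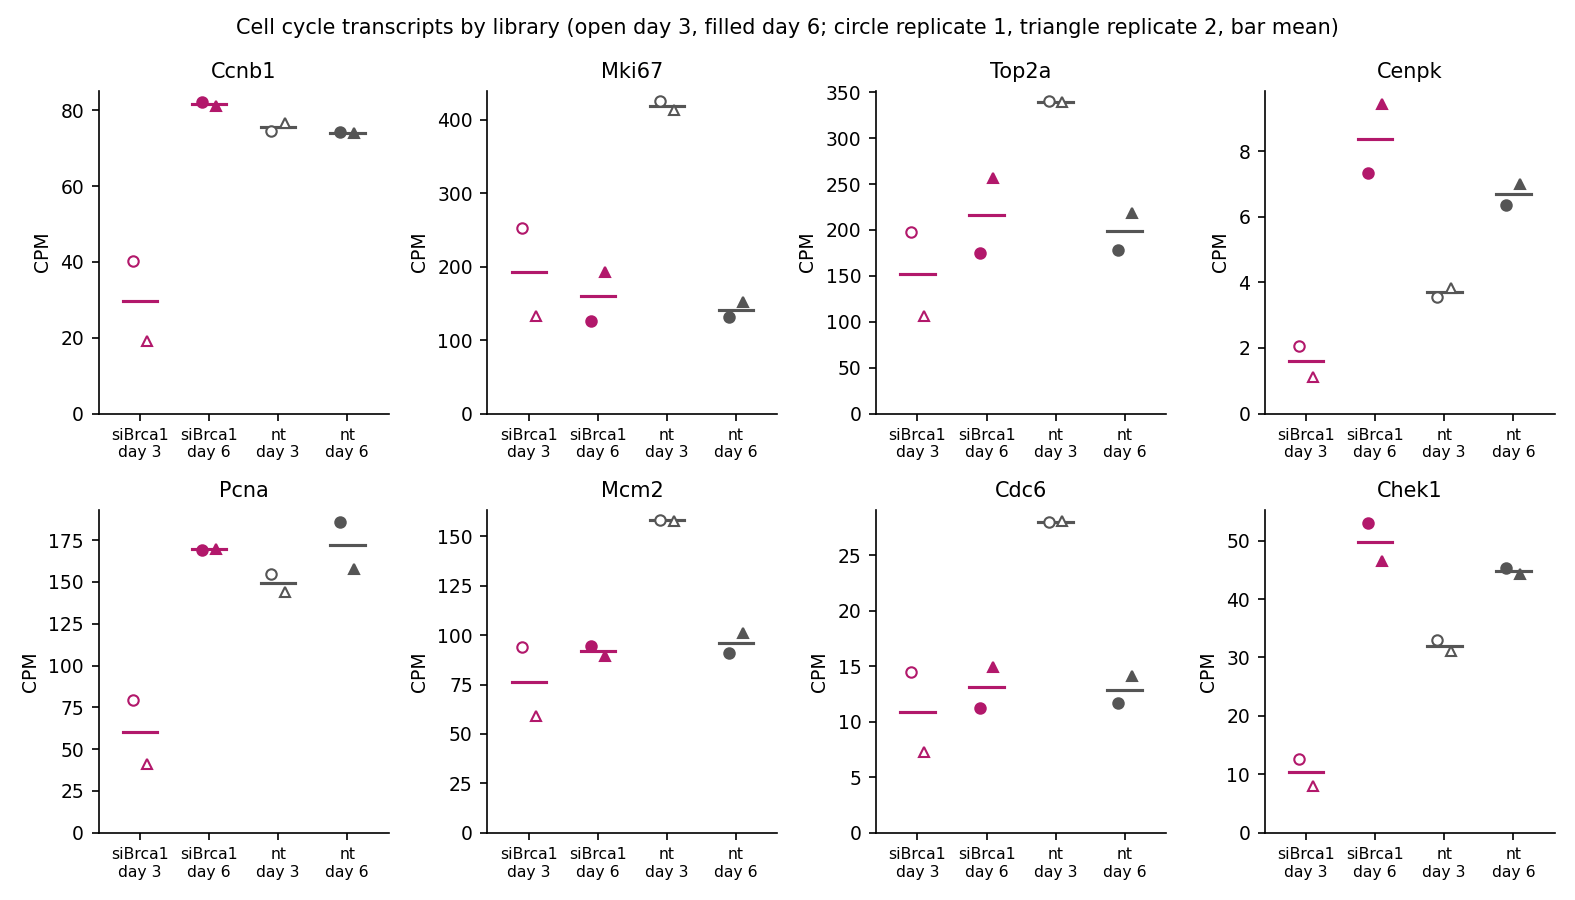
CPM (axes from 0) of 8 cell division transcripts in siBrca1 and nt at day 3 (open) and day 6 (filled), with circles for replicate 1, triangles for replicate 2 and bars for means. In siBrca1, Ccnb1, Cenpk, Pcna and Chek1 are higher in both day 6 libraries than in both day 3 libraries, while Mki67, Top2a and Cdc6 overlap and Mcm2 meets at replicate 1.

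The replication-dependent histone genes, whose mRNAs accumulate in S phase and mostly lack a poly(A) tail, were measurable because ribosomal RNA was depleted from total RNA. Of 55 tested, 49 rose in siBrca1 and none fell (median 1.43), against 2 and 1 in nt (median 0.21). Over all genes tested, 20.5% rose and 28.9% fell in siBrca1, and 10.3% had a positive difference from nt that passed. The 6 histone genes with such a difference, given below, lie near that share. The siBrca1 libraries held 3555 and 1698 CPM over the list at day 3 and 9707 and 4390.4 CPM at day 6, and the nt libraries 7265 and 6188 CPM and then 9369 and 6720.0 CPM (6720). The count rested on single libraries: 13 rose without replicate 2 of day 3 and 14 without replicate 1 of day 6. The difference from nt passed for 6 of 55, and for 0 without the one or without the other (limma, 6 at an unadjusted p under 0.05 each time).

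Promoter sequences are printed here because the cell division genes moved together and short motifs recur in their promoters, though not in all of them. They are RefSeq sequences of GRCm38.p6, 250 bases before to 50 after the start, read along the gene's strand. Motifs were searched on both strands. The cell cycle homology region was searched as TTTGAA and the CCAAT box as CCAAT. E2F motifs were searched as TTCCCGC or as TTGGCGC, and the latter, read on the other strand, can overlap a CCAAT box. TEAD motifs were searched as GGAATG, the octamer as TTTGCAT, the Sox motif as ACAATG, and the CArG box by its usual consensus. TTTGAA was present in 29 of 41 mitosis genes with a promoter in the table (70.7%) and in 20.2% of all 27025 genes. Here and in the later motif shares, list members had passed the expression filter. The share of all genes covers every gene with a promoter, tested or not. E2F motifs were present in 22 of 41 replication genes (53.7%) and 19 of 43 homologous recombination genes (44.2%), against 7.79% of all genes. The Mki67 promoter (chr7:135716330-135716629, minus strand) held TTTGAA 2 times, CCAAT 3 times, once as the reverse complement, and 1 E2F motif, all in capitals. The Brca1 promoter (chr11:101551906-101552205, minus strand) held 1 CCAAT and then 1 E2F motif as the reverse complement, both in capitals. Not every gene described above held the motif of its list. No TTTGAA was found for Ccnb1 or Cenpk, and no E2F motif for Pcna, Mcm2 or Rrm2. Top2a did hold TTTGAA, and Cdc6 an E2F motif. A match describes these letters and does not show a bound site.
Mki67 promoter: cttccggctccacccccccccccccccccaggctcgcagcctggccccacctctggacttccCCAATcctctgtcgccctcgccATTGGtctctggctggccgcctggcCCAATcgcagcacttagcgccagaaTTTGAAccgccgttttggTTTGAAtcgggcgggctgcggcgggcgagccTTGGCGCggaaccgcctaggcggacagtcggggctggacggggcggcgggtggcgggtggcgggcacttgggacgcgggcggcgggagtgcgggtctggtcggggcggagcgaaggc
Brca1 promoter: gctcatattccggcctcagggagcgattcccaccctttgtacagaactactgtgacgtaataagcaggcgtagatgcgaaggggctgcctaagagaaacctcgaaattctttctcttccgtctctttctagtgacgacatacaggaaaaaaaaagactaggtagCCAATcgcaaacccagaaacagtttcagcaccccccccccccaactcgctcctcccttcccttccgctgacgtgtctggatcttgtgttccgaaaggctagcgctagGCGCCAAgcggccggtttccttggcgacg

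Contractile genes and targets of the mechanosensitive co-activators YAP and MRTF fell throughout the siBrca1 course. Of 32 tested, 31 fell and none rose (background 28.9%), with a median of −2.02 against −1.08 in nt, where 30 fell. The exception, Nuak2, named after its value was seen, had a change of −0.06 (adjusted p = 0.766). Acta2, smooth muscle alpha-actin, stood at 3503 and 4689 CPM at day 3 and at 306 and 356 CPM at day 6, which is 12.3-fold lower (log2 −3.62, SE 0.306, adjusted p = 3.20e-07). The nt libraries went from 671 and 832 CPM to 131 and 103 CPM, so both siBrca1 libraries stood above both nt libraries at each day. For Acta2 the difference of the courses, −0.93, did not pass (adjusted p = 0.137).

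Ctgf, a matricellular protein and standard YAP target, fell from 234 and 417 CPM to 17.9 and 23.5 CPM (−3.93, SE 0.446, adjusted p = 4.55e-06), 2.13 further than in nt (log2 −2.13, adjusted p = 0.0261). Ankrd1, another YAP target, fell from 119 and 158 CPM to 13.4 and 18.3 CPM (−3.13, adjusted p = 1.16e-06), with a difference of −1.67 (adjusted p = 0.0145). Acta1, skeletal alpha-actin, fell from 87.2 and 105 CPM to 6.99 and 7.08 CPM (−3.77, adjusted p = 1.07e-06), with a difference of −1.88 (adjusted p = 0.0187). In the whole list, 18 of 32 had a negative difference that passed (background 10.3%) and none a positive one. That number was 5 without replicate 2 of day 3, and the differences of Ctgf, Ankrd1 and Acta1 were then −1.72, −1.46 and −1.74 (adjusted p = 0.135, 0.0769 and 0.0827). The 3 did not pass without replicate 1 of nt day 3 either (adjusted p = 0.103, 0.0769 and 0.0758), nor Ctgf and Ankrd1 without replicate 1 of nt day 6 (0.0564 and 0.0649), Ctgf and Acta1 without replicate 2 of nt day 6 (0.0767 and 0.0587) or Ctgf without replicate 1 of siBrca1 day 6 (0.0596). Cyr61, a further YAP target, fell by 1.95 (adjusted p = 0.000104) from 508 and 566 CPM to 113 and 169 CPM. At day 3, 31 of 32 were higher in siBrca1 than in nt (background 23.8%). At day 6, 3 still were, among them Actg2 (1.70, adjusted p = 0.0400), Cnn1 (1.76, adjusted p = 0.0323) and Myh11 (1.71, adjusted p = 0.00240, named after its value was seen). Actg2 and Cnn1 did not pass at day 6 without replicate 2 of siBrca1 day 6 (adjusted p = 0.248 and 0.217), replicate 2 of nt day 6 (0.479 and 0.37), with limma-voom (0.0879 and 0.0799) or without a trend (0.164 and 0.159). Nor did they without 1 library of day 3 of nt, siWdr5 or siBard1, which enter through the shared spread (0.0505 to 0.0813), or Actg2 without replicate 1 of nt day 6 (0.052). Exons of Ctgf shared 23.2% of their bases with a gene on the other strand and those of Tagln 67.9%, and whether the counting used strand is not stated.

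The Acta1 promoter is shown as the list's example of the motifs that the effectors of these pathways, TEAD and SRF, recognise. TEAD motifs were present in 16 of 25 contractile and YAP target genes (64.0%) and 16.6% of all genes, and the CArG box of SRF in 5 of 25 (20%) and 1.81%. In the Acta1 sequence (chr8:123894726-123895025, minus strand), the first capitals mark a CArG box and the second a TEAD motif as the reverse complement.
Acta1 promoter: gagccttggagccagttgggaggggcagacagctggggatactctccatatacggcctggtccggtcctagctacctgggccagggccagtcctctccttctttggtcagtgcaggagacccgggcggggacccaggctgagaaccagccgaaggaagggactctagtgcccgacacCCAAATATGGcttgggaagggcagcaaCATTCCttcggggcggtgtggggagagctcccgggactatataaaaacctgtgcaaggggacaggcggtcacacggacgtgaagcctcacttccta

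TGF-beta and BMP pathway genes fell more often in siBrca1 than they rose. Of 35, 19 were lower and 4 higher (median −0.54), against 9 and 7 in nt (median −0.17). Over all genes tested, 28.9% fell and 20.5% rose in siBrca1, and 10.3% had a negative difference from nt that passed. Tgfb3, a ligand of the pathway, fell from 272 and 353 CPM to 44.5 and 51.2 CPM (−2.70, SE 0.179, adjusted p = 4.88e-08). It fell further than in nt (difference −1.02, adjusted p = 0.0121) and was still 1.22 higher than nt at day 6 (adjusted p = 0.0137), but not without replicate 2 of siBrca1 day 6 (0.17) or of nt day 6 (0.232), with limma-voom (0.0687) or without a trend (0.108). Tgfb1 held 22.9 and 33.8 CPM and then 28.9 and 18.2 CPM (−0.28, adjusted p = 0.319), whereas it rose by 0.83 in nt, and the difference was −1.11 (adjusted p = 0.0215). Bmp2, a BMP ligand, rose the most, from 2.72 and 1.89 CPM to 22.7 and 15.1 CPM (3.03, adjusted p = 2.04e-06). The difference from nt passed with a negative value for 12 of 35 genes, and for 3 without replicate 2 of day 3. Those of Tgfb3 and Tgfb1 then stood at −0.83 and −0.82 (adjusted p = 0.0725 and 0.123). Neither passed without replicate 1 of nt at day 3 (0.0597 and 0.0822, adjusted) or at day 6 (0.0564 and 0.0756), nor Tgfb1 without replicate 2 of siBrca1 day 6 (0.081). All libraries had the Alk5 inhibitor.

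Matrix genes moved in both directions, and the share that rose in siBrca1 lay near that of all genes. Of 61 extracellular matrix genes, 35 fell and 15 rose in siBrca1 (median −0.64), and 21 fell and 17 rose in nt (median −0.23). Thbs1, thrombospondin, fell from 10283 and 12273 CPM to 1654 and 1988 CPM (−2.63, adjusted p = 2.53e-06). Fn1, fibronectin, fell from 4390.4 and 6181 CPM to 1617 and 1368 CPM (−1.81, adjusted p = 9.08e-07), and Col1a1, the main fibril collagen, from 6523 and 5575 CPM to 1445 and 1833 CPM (−1.89, adjusted p = 4.34e-06). In the other direction, Mmp3, the stromelysin protease, rose from 3.53 and 2.11 CPM to 126 and 132 CPM (5.56, adjusted p = 4.72e-09), and the small proteoglycan gene Lum from 7.59 and 4.22 CPM to 91.8 and 202 CPM (4.59, adjusted p = 2.79e-07). Postn, periostin, did not pass in siBrca1 (0.38, adjusted p = 0.210) and rose by 1.62 in nt, with a difference of −1.24 (adjusted p = 0.0207, or 0.105 without replicate 2 of siBrca1 day 3). It did not pass without replicate 1 of siBrca1 day 6, nt day 3 or nt day 6 either (adjusted p = 0.0577, 0.0927 and 0.0656). In all, 16 differences from nt passed with a negative value and 2 with a positive one (background 10.3% for each).

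Of 37 mesenchymal regulators and fibroblast markers, 20 fell and 8 rose in siBrca1 (median −0.61), against 13 and 10 in nt (median −0.24). Over all genes tested, 28.9% fell and 20.5% rose in siBrca1, so the share of these genes that rose was near that of all genes. Zeb2, which represses E-cadherin, fell from 146 and 194 CPM to 74.9 and 92.4 CPM (−1.02, SE 0.136, adjusted p = 2.16e-05). In nt it stayed between 74.9 and 86.4 CPM, and the difference was −0.86 (adjusted p = 0.00799). Zeb1, its paralog, fell by 1.05 (adjusted p = 2.05e-05), and Prrx1, a homeobox factor of limb mesenchyme, by 0.92 (adjusted p = 2.31e-05) against −0.06 in nt (difference adjusted p = 0.00523). Itga5, the fibronectin receptor subunit, fell from 478 and 666 CPM to 119 and 111 CPM (−2.29, adjusted p = 7.41e-08), 1.57 further than in nt (log2 −1.57, adjusted p = 0.00207). Twist1 stayed between 57.2 and 73.6 CPM (0.18, adjusted p = 0.484) and Snai2 between 19.6 and 30.2 CPM (−0.30, adjusted p = 0.171). Thy1, the fibroblast surface marker, did not pass (0.11, adjusted p = 0.514), while it rose by 1.08 in nt, and the courses differed by −0.97 (adjusted p = 0.00374). Summed over the list, the siBrca1 libraries held 8075 to 8566 CPM at day 3 and 5745 to 5850 CPM (5850.2) at day 6. The nt libraries held 5039.8 to 5235.3 CPM and then 4491.6 to 5221.3 CPM.

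Epithelial genes rose in the siBrca1 course to levels that did not differ detectably from nt at day 6. Of 35 tested, 28 rose (background 20.5%) and 2 fell, with a median of 3.00, against 26 and 1 in nt (median 2.54). Cdh1, E-cadherin, stood at 15.99 and 10.1 CPM at day 3 and at 111 and 141 CPM at day 6 (3.30, SE 0.218, adjusted p = 4.60e-08). The nt libraries went from 41.5 and 29.4 CPM to 117 and 159 CPM, so siBrca1 began lower and the difference of 1.34 passed (adjusted p = 0.00878), but not without replicate 2 of day 3 (1.00, adjusted p = 0.0520) or replicate 1 of nt day 3 (1.09, adjusted p = 0.0507). Epcam, an epithelial adhesion molecule, rose from 4.41 and 1.97 CPM to 104 and 82.8 CPM (4.97, adjusted p = 5.34e-08). Krt8 and Krt18 encode the paired keratins of simple epithelia. Krt8 rose from 2.496 and 3.51 CPM to 167 and 165 CPM (5.81, adjusted p = 3.92e-08), and Krt18 from 11.9 and 5.76 CPM to 132 and 147 CPM (4.07, adjusted p = 6.35e-08).

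For Krt18 the order at day 3 was the other way, with 3.76 and 4.30 CPM in nt, and the difference of the courses was −1.12 (adjusted p = 0.0581). Ap1m2, the epithelial clathrin adaptor subunit, had the largest rise of the list (6.18, adjusted p = 6.76e-08), from 0.210 and 0.136 CPM, at most 1 read, to 11.6 and 13.02 CPM. Grhl2, a transcription factor of epithelial fate, rose by 4.63 and Cldn6, a tight junction claudin of embryonic epithelia, by 5.15. The 2 genes that fell were Cdh3, P-cadherin (15.3 and 15.96 CPM to 5.86 and 8.63 CPM, −1.13, adjusted p = 0.000523), and the plakoglobin gene Jup (−0.66, adjusted p = 0.000282), named after its value was seen. For both, the nt change did not pass, and the differences of −1.17 and −0.83 did (adjusted p = 0.0159 and 0.00476). Without replicate 2 of day 3 the difference of Cdh3 was −1.14 (adjusted p = 0.0625), and it did not pass without replicate 1 of day 6 (0.0515) or replicate 2 of nt day 3 (0.0664). In the epithelial list, 3 of 35 differences from nt passed with a positive value, a share near the 10.3% of all genes tested. That count was lower without replicate 2 of siBrca1 day 3.

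The cassette genes did not pass in the siBrca1 course. Summed over Pou5f1, Sox2, Klf4 and Myc, introduced and endogenous reads together, the siBrca1 libraries held 799 to 1080 CPM (1079.6) at day 3 and 782 to 898 CPM at day 6, against 1848 to 1985 CPM and 1070 to 1342 CPM (1069.7 to 1342.3) in nt. All 4 genes were lower than nt at day 3 (median −1.06) and none passed at day 6. Pou5f1, which encodes Oct4, held 129.9 and 96.6 CPM and then 158 and 129.7 CPM (0.35, adjusted p = 0.261). Sox2, Klf4 and Myc changed by −0.13, −0.32 and −0.19 (adjusted p = 0.733, 0.281 and 0.479). In nt, those 3 fell, by 0.82, 0.69 and 0.89, and none of the 4 differences between the courses passed.

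The pluripotency network rose. Of 37 genes, 30 rose and 1, Klf5, fell in siBrca1 (background 20.5% and 28.9%), with a median of 1.92, against 20 and 3 in nt (median 0.79). Klf5, a Klf4 paralog, changed by −0.41 (adjusted p = 0.0129, or 0.0845 and 0.0983 without replicate 1 of day 3 or of day 6). Nanog, the factor that marks the endogenous network, stood at 0.505 and 0.277 CPM at day 3, which is 5 and 2 reads, and at 126 and 38.2 CPM at day 6 (7.54, SE 0.527, adjusted p = 6.42e-08). The nt libraries went from 0.994 and 0.593 CPM to 55.5 and 49.3 CPM, which lie between the 2 siBrca1 libraries of day 6, and the difference of 1.44 did not pass (adjusted p = 0.182). Dppa5a, an RNA-binding protein of pluripotent cells, had 0 reads in both day 3 libraries and 2512 and 509 at day 6, at least 400.2-fold higher against a floor of 3 reads per library. Tdgf1, the Nodal co-receptor Cripto, also had 0 reads at day 3 and 1089 and 479 at day 6, at least 256-fold higher on the same floor. Replicate 1 of day 6 was the higher for each of these 3 genes.

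Sall4, a zinc-finger factor of early embryo cells, showed closer replicates, with 3.23 and 2.74 CPM at day 3 and 27.8 and 31.4 CPM at day 6 (3.31, SE 0.255, adjusted p = 1.49e-07), and differed from nt by 1.25 (adjusted p = 0.0240). That difference did not pass (adjusted p = 0.0598 to 0.0991) without replicate 2 of either siBrca1 day or replicate 1 of either nt day. Esrrb, an orphan nuclear receptor of naive pluripotency, had at most 1 read at day 3 and 7.77 and 4.99 CPM at day 6. Lin28a, which blocks let-7 maturation, had as few at day 3 and 6.73 and 10.9 CPM at day 6, and both rises passed (adjusted p = 4.53e-07 and 1.73e-07). Fbxo15, an early target of Oct4 and Sox2, rose from 0.431 and 0.136 CPM, 4 and 0 reads, to 24.0 and 8.70 CPM, and had the largest difference from nt in the list (3.16, adjusted p = 0.0155), which was 2.33 (adjusted p = 0.0911) without replicate 2 of day 3 and did not pass without replicate 1 of day 6 (0.0533) or of nt day 3 (0.0541). Zfp42 and Utf1, late markers, were too low to be tested and reached at most 3.60 CPM. In all, 16 of 37 differences from nt passed with a positive value and 2 with a negative one, and without replicate 2 of day 3 these were 8 and 1. At day 6 no member differed from nt past the test.

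The Nanog promoter is shown for its adjacent motifs of the cassette's own factors, the octamer of Oct4 and the Sox motif, which are separated by 1 base (chr6:122707239-122707538, plus strand, with both motifs in capitals). The octamer was found in 1 of 21 pluripotency genes (4.76%) and 5.24% of all genes, and the Sox motif in 3 of 21 (14.3%) and 14.3%, so in windows of this length the list did not hold them more often than genes at large.
Nanog promoter: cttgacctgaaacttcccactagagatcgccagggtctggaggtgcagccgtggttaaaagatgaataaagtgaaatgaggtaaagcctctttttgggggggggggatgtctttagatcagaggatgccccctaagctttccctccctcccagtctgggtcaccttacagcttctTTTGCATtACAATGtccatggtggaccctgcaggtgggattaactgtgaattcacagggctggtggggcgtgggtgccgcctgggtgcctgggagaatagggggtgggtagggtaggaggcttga

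**Figure D5:**
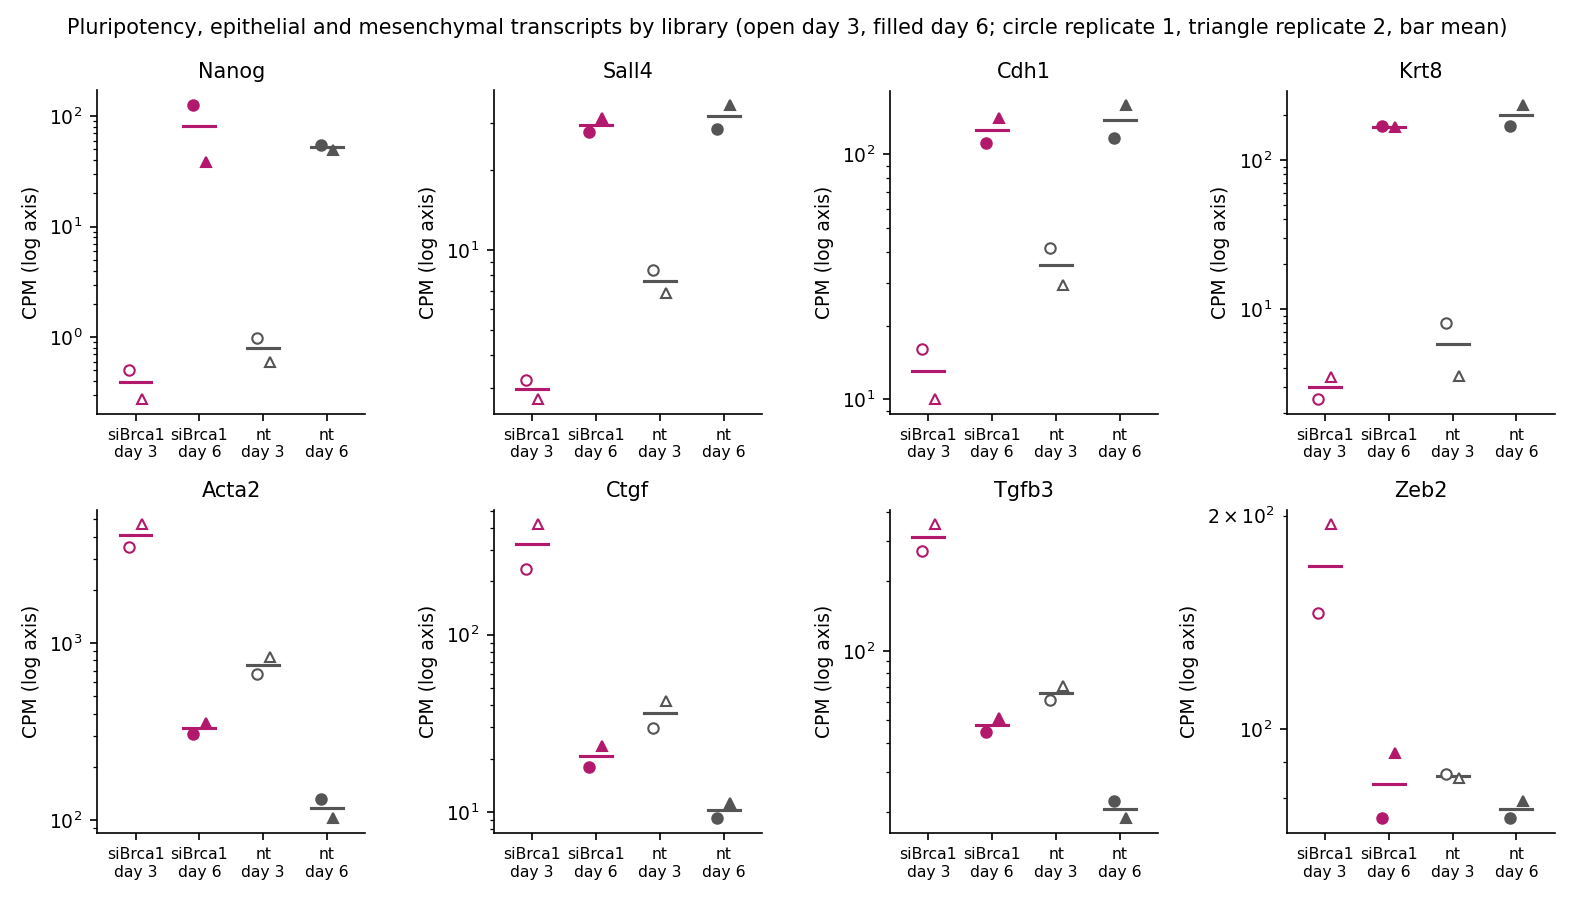
CPM on log axes of 8 pluripotency, epithelial and mesenchymal transcripts in siBrca1 and nt at day 3 (open) and day 6 (filled), with circles for replicate 1, triangles for replicate 2 and bars for arithmetic means. In siBrca1, Nanog goes from 0.505 and 0.277 to 126 and 38.2 CPM and Acta2 from 3503 and 4689 to 306 and 356 CPM, and the day 6 values lie near those of nt for Sall4, Cdh1 and Krt8.

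The largest called rises of the course outside those lists were Calcoco2, an autophagy receptor (at least 113-fold against the floor), Gpx2, an epithelial glutathione peroxidase (7.23), Rhox6 and Dppa3, which are expressed in germ and pluripotent cells (at least 123-fold and 85.5-fold), and Mylpf. Mylpf, a fast-muscle myosin light chain, stood at 1.83 CPM in both day 3 libraries and at 328 and 83.5 CPM at day 6. The largest falls were Siglecg, from 38.3 and 70.1 CPM to 1.70 and 2.16 CPM (−4.76, adjusted p = 3.59e-07), Tnmd, tenomodulin (−3.87), and Aoc3, a vascular amine oxidase (−3.72), beside the contractile genes above. Siglecg fell in nt as well, by 2.73.

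The genes whose siBrca1 course lay furthest above the nt course were mostly of low level. Among them Penk, the enkephalin precursor, stood at 4.27 and 2.53 CPM at day 3 and at 22.7 and 23.2 CPM at day 6, against 12.7 and 9.49 CPM and then 10.9 and 4.92 CPM in nt (difference 3.39, SE 0.527, adjusted p = 0.00226). C2cd4a, Col6a5, Lrfn5 and Pdzph1 had differences of 3.69, 3.52, 3.46 and 3.10 with at most 4.45 CPM in any siBrca1 library. Furthest below were Cyp1a1, the xenobiotic-inducible cytochrome P450 (10.3 and 8.16 CPM to 3.78 and 1.55 CPM, difference −3.45, adjusted p = 0.00694), and Aldh1l2, the mitochondrial folate enzyme (difference −3.27, adjusted p = 0.00774). Aldh1l2 held 11.7 and 63.4 CPM at day 3 and 5.69 and 5.26 CPM at day 6, and Trib3, a pseudokinase of the stress response, 5.37 and 31.9 CPM and then 4.30 and 4.18 CPM (difference −2.91, adjusted p = 0.0157, and 0.0533 to 0.0596 without replicate 2 of siBrca1 day 3, replicate 2 of nt day 3 or replicate 1 of nt day 6). For both, replicate 2 of day 3 was more than 5 times replicate 1, the same library that was lowest in Brca1 and in mitosis genes. Trpv2, an ion channel gene, Qpct, a glutaminyl cyclase gene, and Casq2, which encodes cardiac calsequestrin, completed the lowest differences at −2.91, −2.79 and −2.73. The Lrfn5 difference was 1.96 (adjusted p = 0.0617) without replicate 2 of day 3, and did not pass without either nt library of day 3 (0.055 and 0.0501).

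The siBrca1 course was also set against the siWdr5 and siBard1 courses. Against siWdr5, 329 genes (2.35%) passed with a positive and 974 (6.94%) with a negative difference, and 489 were called. The contractile list again stood out with 19 of 32 negative differences, and 10 of 51 mitosis and 8 of 51 replication genes had positive ones. So did 5 of 37 pluripotency network and 3 of 53 homologous recombination genes. Among other lists, 8 of 61 matrix and 7 of 37 mesenchymal genes had negative differences, and 2 of each list positive ones. For TGF-beta and BMP genes 6 of 35 were negative. Against siBard1, 76 genes (0.542%) passed with a positive and 120 (0.855%) with a negative difference, and 104 were called. The lists gave 7 mitosis, 4 replication and 2 homologous recombination genes with a positive difference. Negative ones passed for 3 of 24 cholesterol synthesis, 2 of 32 interferon-stimulated and 1 of 32 contractile genes. The remaining lists gave at most 1 gene each. Leaving out 1 library of the groups compared, the number called went from 37 (without replicate 2 of siWdr5 day 6) to 964 (without replicate 1 of siBrca1 day 3) against siWdr5. Against siBard1 it went from 0 (without replicate 2 of siBard1 day 3, siBrca1 day 3 or siBrca1 day 6, with 1816 to 2546 genes at an unadjusted p under 0.05 in limma) to 713 (without replicate 1 of siBrca1 day 3). Chek1 passed in both comparisons, with differences of 1.18 (adjusted p = 0.0173) from siWdr5 and 1.21 (adjusted p = 0.0396) from siBard1. Itga5 did so too, at −0.96 (adjusted p = 0.0226) and −1.20 (adjusted p = 0.0346). Both calls depended on single libraries. Against siBard1, Chek1 and Itga5 did not pass without a trend (adjusted p = 0.1 and 0.0943), with quantile normalization (0.0506 for both) or without replicate 2 of siBrca1 day 3 (0.177 and 0.155), replicate 2 of siBrca1 day 6 (0.0769 and 0.079), replicate 2 of siBard1 day 3 (0.263 and 0.256) or replicate 1 of siBard1 day 6 (0.099 and 0.093), and Chek1 also without replicate 2 of siBard1 day 6 (0.0624). They missed the threshold as well without any 1 nt library or any 1 siWdr5 library of day 3, which enter only through the shared spread (0.054 to 0.0657). Against siWdr5, neither passed without replicate 2 of siBrca1 day 3 (0.0711 and 0.102), siWdr5 day 3 (0.0811 and 0.0735) or siWdr5 day 6 (0.103 and 0.105), nor Itga5 without replicate 1 of siWdr5 day 3 (0.0749), without a trend (0.0619) or with quantile normalization (0.051). For Brca1 the differences were 0.62 (adjusted p = 0.195) and 1.07 (adjusted p = 0.0682), and neither passed.

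The counts of further lists are read against the background of all genes (28.9% lower, 20.5% higher), which the next list lay near. Of 38 CDK inhibitor and p53 target genes, 12 fell and 6 rose, against 7 and 9 with quantile normalization. Cdkn1a, the p53 target p21, changed by −0.33 (adjusted p = 0.0454, 656 and 659 CPM to 557 and 492 CPM), and Mdm2, which degrades p53, by −0.37 (adjusted p = 0.0111). Without replicate 2 of day 3 neither passed (adjusted p = 0.127 for both), nor without replicate 2 of day 6 (0.218 and 0.0806), nor Cdkn1a without replicate 1 of day 3 (0.106), and with quantile normalization Cdkn1a stood at 0.01. Cdkn2b, the inhibitor p15, did not pass (−0.17), rose by 0.91 in nt, and differed by −1.08 (adjusted p = 0.00467). The imprinted Cdkn1c, p57, rose by 2.20 from 12.01 and 12.3 CPM to 53.7 and 57.8 CPM. Of 27 cytokine and chemokine genes, 10 fell and 7 rose in siBrca1 (median −0.27), against 6 and 14 in nt (median 0.48), and 11 differences passed, all negative (5 without replicate 2 of day 3 or without replicate 1 of day 6). Cxcl1, a neutrophil attractant, fell by 1.26 (adjusted p = 0.00593) with 16.8 and 25.9 CPM at day 3 and 6.29 and 12.004 CPM at day 6, and its difference from nt was −1.46 (adjusted p = 0.0425). Without replicate 2 of day 3 both missed the threshold (adjusted p = 0.0752 and 0.188), as they did without replicate 1 of day 6 (0.0911 and 0.146). The Cxcl1 difference also missed it without either nt library of day 3 or replicate 1 of nt day 6 (0.0777 to 0.206).

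Of 24 cholesterol synthesis genes, 10 fell and 3 rose (background 28.9% and 20.5%), against 1 and 7 in nt, and 5 differences passed, all negative. Without replicate 2 of siBrca1 day 3, 6 fell and 2 differences passed. Of 23 DNA methylation and Polycomb genes, 10 rose and 4 fell. Dnmt3b, a de novo methyltransferase, rose by 2.46 (adjusted p = 8.79e-06) and Tet1, which oxidises 5-methylcytosine, by 1.79, while Dnmt3a fell by 0.79. Tet2 did not pass (0.20, adjusted p = 0.219), and its difference from nt was 0.94 (adjusted p = 0.00421). Of 24 glycolysis genes, 7 rose and 9 fell. Slc2a3, the glucose transporter GLUT3, rose by 4.13 (adjusted p = 4.72e-09) from 12.01 and 11.95 CPM to 169 and 260.1 CPM, and by 3.85 in nt.

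Several markers of other cell types were absent or low, but Mylpf, Nes and Des reached 328, 245 and 171 CPM in a siBrca1 library. Of 14 macrophage markers, 8 were listed and 5 tested. Their sum was 17.7 to 22.2 CPM at day 3 and 20.6 to 26.9 CPM at day 6, Ptprc, Itgam and Fcgr1 were not in the table, and 1 gene rose, Cd14 (adjusted p = 0.0417, or 0.340 and 0.323 without replicate 2 of day 3 or replicate 1 of day 6). Of 10 endothelial markers, 3 were tested and 2 fell, and Cdh5 and Pecam1 reached at most 0.657 and 1.26 CPM. Skeletal muscle markers summed to 167 to 174 CPM at day 3 and 119 to 369 CPM at day 6, nearly all from Des, which fell by 2.21, and Mylpf, and Myod1, Myog and Myf5 were not in the table. Adipocyte markers summed to 88.4 to 163 CPM at day 3 and 79.4 to 82.5 CPM at day 6, and 2 of 6 fell. Chondrocyte and bone markers summed to 74.3 to 76.7 CPM and then 41.6 to 45.4 CPM. Of 6 tested, 1 rose and 1 fell, the cartilage collagen gene Col2a1 (−3.08). Neural and glial markers summed to 274 to 322 CPM and then 199.5 to 214 CPM, mostly from Nes, which fell by 1.37. Of 8 tested, 1 rose and 1 fell. Stmn2 went the other way from Nes, from 785 reads over the day 3 libraries to 1777 over those of day 6. The part of these cells in the other results was not tested.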

How the data were processed

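RNA was measured in 16 bulk libraries, 2 for each of 4 siRNA treatments at day 3 and day 6. The authors depleted ribosomal RNA from 200 ng of total RNA, made Kapa libraries and sequenced them paired-end. According to the submitters' processing notes, STAR 2.5.2b, mm10 and edgeR 3.20.9 were used. The deposited values are log2 CPM that the authors computed with edgeR, already scaled between libraries and raised by a prior count, so that 0 reads appear as 0.136 CPM. The read counter, annotation, low-count filter and use of strand are not given in the sources used here. All 16 sample columns of the table were used.

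Whole reads were recovered from the values (100% within 0.01 reads), which gave 11169738 to 26832534 reads per library. Counting error only is covered by the floor of 3 reads. Genes averaging log2 CPM 0 or more (14028 of 18990) were fitted with limma 3.58.1 in R 4.3.3, 1 mean for each of the 8 groups and moderation with a trend, and contrasts gave each course, the differences between courses, and siBrca1 against nt at each day. P-values are two-sided and Benjamini-Hochberg adjusted over all genes tested. The steps were tested on simulated data. Exons came from GENCODE vM21 (18969 genes matched) and promoters from RefSeq.

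The genes and lists described were chosen with earlier results of these data known, so their counts stand beside those of all genes and no list was tested as a set. Named are the key members of each list, its largest passing rise and fall, the 8 largest called rises and falls of the course, and the 6 largest differences from nt in each direction, among genes whose days do not overlap in siBrca1 and whose symbols are not predicted or non-coding ones, apart from genes said to be named after their values were seen. A few key members are not reported here. Alternatives were other filters, pseudocounts, scalings, sets of libraries, no trend, limma-voom on the recovered reads, a replicate block, no fold threshold and leaving out each library.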

Additional observations from a re-analysis of the deposited data

Results flagged for a closer look

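A selection of the genes described above is listed here with values. The siBrca1 course of each differed from the nt course in a direct test of the difference (limma interaction, Benjamini-Hochberg over 14028 genes). Other genes described above also passed this test, among them Cdc6, Itga5 and Cdh1, and are not repeated. Brca1 differed by 1.585 (adjusted p = 0.00390) and Bard1 by 1.409 (adjusted p = 0.00564). Of the cell division genes, Ccnb1 differed by 1.585, Mki67 by 1.342 and Chek1 by 1.813. Of the identity genes, Fbxo15 differed by 3.157, Ctgf by −2.135 and Ankrd1 by −1.667. Of the genes with the widest differences, Penk stood at 3.393, Aldh1l2 at −3.268 and Cyp1a1 at −3.446. The number of genes called for a difference was 1206 against nt, 489 against siWdr5 and 104 against siBard1. For each of the 11 genes the siBrca1 libraries of day 3 lay on 1 side of the nt libraries of day 3. None of the 11 differed from nt past the test at day 6. These comparisons use the same libraries as the differences, so they restate them by their end points and describe only the genes selected. Tgfb3, described above and not selected, did pass at day 6 (1.22, limma adjusted p = 0.0137), a call that depended on single libraries and on the fit.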

How the results depend on the processing

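The siBrca1 course called 2242 genes and stayed within 1.5 times that under all alternatives except no fold threshold (6929). Without the fold threshold the other counts were 6474 for the nt course, 2878, 1303 and 196 for the differences from nt, siWdr5 and siBard1, and 6275 at day 3. The nt course called 1021 genes at a mean log2 CPM of at least 2. In a fit of the 8 siBrca1 and nt libraries, 1821 genes passed for the difference from nt and 946 were called. Fitted on its own 4 libraries, the siBrca1 course had 4580 genes that passed and 2134 called. The difference from siBard1 gave 0 called without a trend (2999 at an unadjusted p under 0.05) and 43 with quantile normalization. At day 6, siBrca1 against nt gave 10 at a mean log2 CPM of at least 2, 10 with 8 libraries, 10 with log2(CPM + 1), 6 without a trend, 29 with quantile normalization and 2 with limma-voom. In the fit blocked on replicate number, the siBrca1 course called 2256 genes, the differences from nt, siWdr5 and siBard1 1299, 568 and 195, day 3 1882 and day 6 25, and Brca1 changed by 0.49 (adjusted p = 0.0657). The numbers were not taken to pair the samples, since no source says that a number marks a shared experiment and not every pair of groups correlated: over 28 pairs the replicate differences correlated at −0.0931 to 0.372, 9 of them over 0.1. Leaving out 1 library at a time, the difference from nt called 437 to 1956 genes, that from siWdr5 37 to 964, that from siBard1 0 to 713, day 3 1013 to 2556 and day 6 2 to 80, and the Brca1 change was 0.017 to 0.97. The leave-outs of siWdr5 and siBard1 libraries were chosen after seeing the data, and a lone library was assumed to vary like the other groups. The lows came without siBrca1 day 3 replicate 2 (437, 1013), siWdr5 day 6 replicate 2 (37) and siBrca1 day 6 replicate 2 (2), among others, and the highs of the differences without siBrca1 day 3 replicate 1. The causes were not tested. Of 1921 alternatives for single named genes, 1803 kept direction and side of the threshold, 117 lost the threshold and 1 reversed: Cdkn1a in the siBrca1 course, 0.0098 with quantile normalization. Of 1089 alternatives for list counts, 922 stayed within 1.5 times and 44 list medians changed sign. With 2 libraries per group and day 3 levels of a few reads for late pluripotency genes, folds of those genes are bounds.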

Other observations

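Other lists are given with their medians or their counts in both courses, and over all genes 20.5% rose and 28.9% fell in siBrca1. Of 84 cytosolic ribosomal protein genes, 54 rose and 3 fell (median 0.74, against 0.78 in nt), with Rps29 rising the most (1.53, from 124 and 116 CPM to 467 and 256 CPM). Of 7 mitochondrially encoded mRNAs tested, 7 rose (median 1.03, nt 0.94). Of 86 nuclear OXPHOS subunit genes, 49 rose and 10 fell (median 0.52, nt 0.33). Of 33 Hox genes, 15 fell (median −0.70, nt −0.28, where 10 fell; 10 without replicate 2 of siBrca1 day 3) and 1, Hoxd13 (0.51, adjusted p = 0.0185, or 0.204 and 0.182 without replicate 2 of day 3 or of day 6), rose. Hoxd13 fell by 0.48 in nt, and the difference of 0.99 passed (adjusted p = 0.00971, or 0.0570 without replicate 2 of day 3).

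Of 32 interferon-stimulated genes, 7 rose, near the 20.5% of all genes, and 1 fell (median 0.30, nt 0.29; 4 rose without replicate 2 of day 3), with Ifitm1, which pluripotent cells also express, rising by 2.54, and Ifit1 giving 3.09 and 2.32 CPM at day 3 and 6.99 and 3.17 CPM at day 6 (adjusted p = 0.222). Of 29 imprinted genes, 6 rose and 9 fell, near the shares of all genes, against 10 and 6 in nt. Of these, Phlda2, a growth restrictor of placenta, rose by 5.25 and H19 by 1.33, while Meg3 fell by 1.48 and further than in nt (difference −1.02, adjusted p = 0.0209, or 0.118, 0.0968 and 0.0978 without replicate 2 of siBrca1 day 3, replicate 1 of nt day 3 or replicate 2 of nt day 6). Of 5 germline genes tested, 4 rose, against 3 in nt. Of 17 AP-1 factor genes, 4 fell and 1 rose, against 2 and 3 in nt. Fosl2 fell by 1.30 (difference from nt −0.82, adjusted p = 0.00963, or 0.0585 without replicate 2 of siBrca1 day 3) and Egr3 rose by 1.69, and Fos and Jun did not pass (0.13 and 0.38). Of 11 epidermal genes, 7 rose and 1, Sprr2b (−2.40), fell, and in nt 7 rose and 1 fell as well. Of 8 lineage markers, 3 rose and 2 fell, against 4 and 1 in nt. Tfap2c rose by 4.47, Gata6 fell by 1.09, and T, Brachyury, had 0 reads in both day 3 libraries and 3.26 and 3.91 CPM at day 6.

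Changes were related to exon length across genes. Over 14018 genes with annotated exons, the Spearman correlation of the change with total exon length was −0.251 in siBrca1 and −0.278 in nt, and −0.00927 for the difference between the courses, given as descriptions across genes of the same libraries. The median exon length was 3496 bases for genes that passed with a rise and 5596.5 bases for those that passed with a fall. Within the lists the siBrca1 correlation was 0.0189 over 51 mitosis genes, −0.411 over 51 DNA replication genes (−0.299 for the difference) and −0.182 over 53 homologous recombination genes (0.085 for the difference).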
